A study of Mus musculus with 8 samples.

Results

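Adipose macrophage genes were followed here as a set of 36 genes, chosen by symbol, of the 22180 genes that the array annotation names. The set holds general macrophage genes, Fc receptors with their signalling adaptors, markers of resident and of lipid-associated adipose macrophages, scavenger and lectin receptors, and genes of the activation state. All 36 had a probe set annotated to that gene alone, and for Cd9, which had 2, the brighter one was used. Transcripts were measured in epididymal white adipose tissue (eWAT), the fat pad attached to the epididymis, of male mice with 1 array per mouse. The groups were Abhd15-ko mice (KO, n = 5) and wild-type mice (WT, n = 3), all on a C57BL/6J background, on normal chow, 14 weeks old, and sampled after a night without food and 1 h of refeeding with chow. Abhd15 encodes a protein of adipocytes, and the means of its deletion is not stated.

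Macrophages are the most abundant immune cells of fat. Resident macrophages lie along vessels and carry endocytic receptors such as LYVE1, the mannose receptor MRC1 and the haemoglobin scavenger receptor CD163. In obese fat, monocyte-derived cells gather around dying adipocytes and take up their lipid, and these lipid-associated macrophages are known for TREM2, CD9 and GPNMB. Survival of both kinds depends on the receptor CSF1R, whose ligands CSF1 and IL-34 are made by stromal cells, adipocytes and mesothelium, and their gene programme is opened by the transcription factor PU.1, the product of Spi1. The comparison of KO with WT asks whether loss of Abhd15 goes with more, fewer or different macrophages in lean, refed fat.

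Values are log2 RMA values, the normalized brightness of a probe set, and levels of different genes are not compared. Over all probe sets the arrays had medians of 2.93 to 3.12. Markers of the labelled tissue were present: all 7 mature adipocyte genes examined passed the level filter, and Adipoq read 9.49 ± 0.526 in KO and 9.78 ± 0.112 in WT (SD, n = 5 and 3). The array labelled KO 5 had the lowest median over the 11090 tested genes, at 5.93 against 6.04 to 6.07 in the other arrays. Transcripts of neighbouring organs stood out in KO 4 and WT 1, and they were not the same ones. Of the epididymal genes, Lcn5, Spint4 and Adam7 read 8.56, 10.25 and 10.24 in KO 4. They read 1.69 to 4.93 in the other KO arrays and 1.65 to 2.63 in WT. Lcn8 (1.92) and Rnase10 (1.31) were not raised in KO 4. The seminal vesicle genes Svs2, Svs4, Svs5 and Svs6 read 6.38, 6.45, 7.43 and 5.21 in WT 1, against 1.31 to 2.58 in all KO arrays, and in the other WT arrays only Svs5 in WT 2 (4.51) exceeded 2.42. Genes of testis and sperm averaged 5.36 in KO 4 and 3.80 to 4.28 in the other KO arrays, against 6.93, 5.61 and 3.64 in WT 1 to WT 3 (6 of 7 measured). Abhd15 itself read 5.60 to 6.27 in KO and 6.15 to 6.45 in WT. KO 3 had that highest KO value, inside the WT range. Where its probes lie relative to the deleted part is not given, so they do not check the labels. Whether the mice of a group were littermates is not stated either.

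Regulatory sequence is shown for 4 of the genes, each from 250 bases before to 50 bases after the annotated transcription start (RefSeq, GRCm38.p6, plus strand): Mpeg1, the tested member with the smallest unadjusted p, Mrc1 for the resident and Trem2 for the lipid-associated state, and Ctss, a lysosomal protease gene whose window holds the longest motif searched. They lie at chr19:12460520-12460819, chr2:14229164-14229463, chr17:48346151-48346450 and chr3:95526536-95526835. Capitals mark GAGGAA or its reverse complement TTCCTC, the core that PU.1 prefers.
Mpeg1: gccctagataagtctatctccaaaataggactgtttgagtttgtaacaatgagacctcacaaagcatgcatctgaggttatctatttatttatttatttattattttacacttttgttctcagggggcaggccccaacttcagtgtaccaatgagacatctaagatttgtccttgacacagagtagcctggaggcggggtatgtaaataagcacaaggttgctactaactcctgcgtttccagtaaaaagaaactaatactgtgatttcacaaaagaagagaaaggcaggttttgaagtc
Mrc1: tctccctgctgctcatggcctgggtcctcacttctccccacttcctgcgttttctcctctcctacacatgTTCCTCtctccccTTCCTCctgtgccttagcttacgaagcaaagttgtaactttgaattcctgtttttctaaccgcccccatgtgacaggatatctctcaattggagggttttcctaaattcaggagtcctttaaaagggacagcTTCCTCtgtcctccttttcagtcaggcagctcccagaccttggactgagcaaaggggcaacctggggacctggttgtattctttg
Trem2: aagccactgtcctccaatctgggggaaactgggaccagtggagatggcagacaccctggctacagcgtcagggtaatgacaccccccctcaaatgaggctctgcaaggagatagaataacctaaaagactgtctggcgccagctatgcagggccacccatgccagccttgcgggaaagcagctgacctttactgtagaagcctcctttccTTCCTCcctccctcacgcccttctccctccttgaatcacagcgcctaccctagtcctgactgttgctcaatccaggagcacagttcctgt
Ctss: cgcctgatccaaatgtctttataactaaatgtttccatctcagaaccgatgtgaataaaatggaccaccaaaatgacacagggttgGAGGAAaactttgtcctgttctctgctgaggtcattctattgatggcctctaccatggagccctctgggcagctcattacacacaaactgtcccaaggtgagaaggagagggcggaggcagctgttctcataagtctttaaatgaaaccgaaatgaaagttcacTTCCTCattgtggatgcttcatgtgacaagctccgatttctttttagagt

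The RefSeq promoter table held windows for 26 of the 36 genes, 29 windows in all. GAGGAA on either strand occurred in 14 of them (48.3%), against 28.3% of all 32851 windows in the table. The longer GAGGAAGT, which contains GAGGAA, occurred in 2 (Ctss and Retnla, 6.90%), against 3.20% of all windows. Of the windows printed above, that of Mpeg1 held no GAGGAA, that of Mrc1 held 3, that of Trem2 held 1 and that of Ctss held 2. A match is a run of letters and not a measured binding site.

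No difference in macrophage genes between KO and WT fat was detectable beyond the spread between mice. No member passed the threshold of 0.05 after adjustment in limma, nor did any of the 11090 genes tested (0% called), and the smallest adjusted p of a member was 0.417. The level filter, the median of gene means (3.61), left 31 members for the test, of which 14 were higher and 17 lower in KO. Their median log2 difference was -0.03, equal at this rounding to the median over all tested genes (-0.03), and 55.2% of all tested genes were lower in KO. At an unadjusted p under 0.05, 1 member differed (Mpeg1), or 3.23%, against 10.5% of all tested genes. No member separated the groups fully, which 8.53% of all tested genes did. In bulk tissue, fewer macrophages and less macrophage RNA per cell cannot be told apart.

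The intervals give the differences that the values of each gene allow, with no adjustment for the number of genes. For 29 of the 31 tested members the 95% interval of the KO minus WT difference lay within -1 to 1 on the log2 scale, that is within a 2-fold change either way, and the same held for 91.3% of all tested genes. For 16 members it lay within a 1.5-fold change. The intervals of Mpeg1, at its lower end (-1.05), and of Mgl2, at its upper end (1.06), reached beyond 2-fold.

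**Figure D1:**
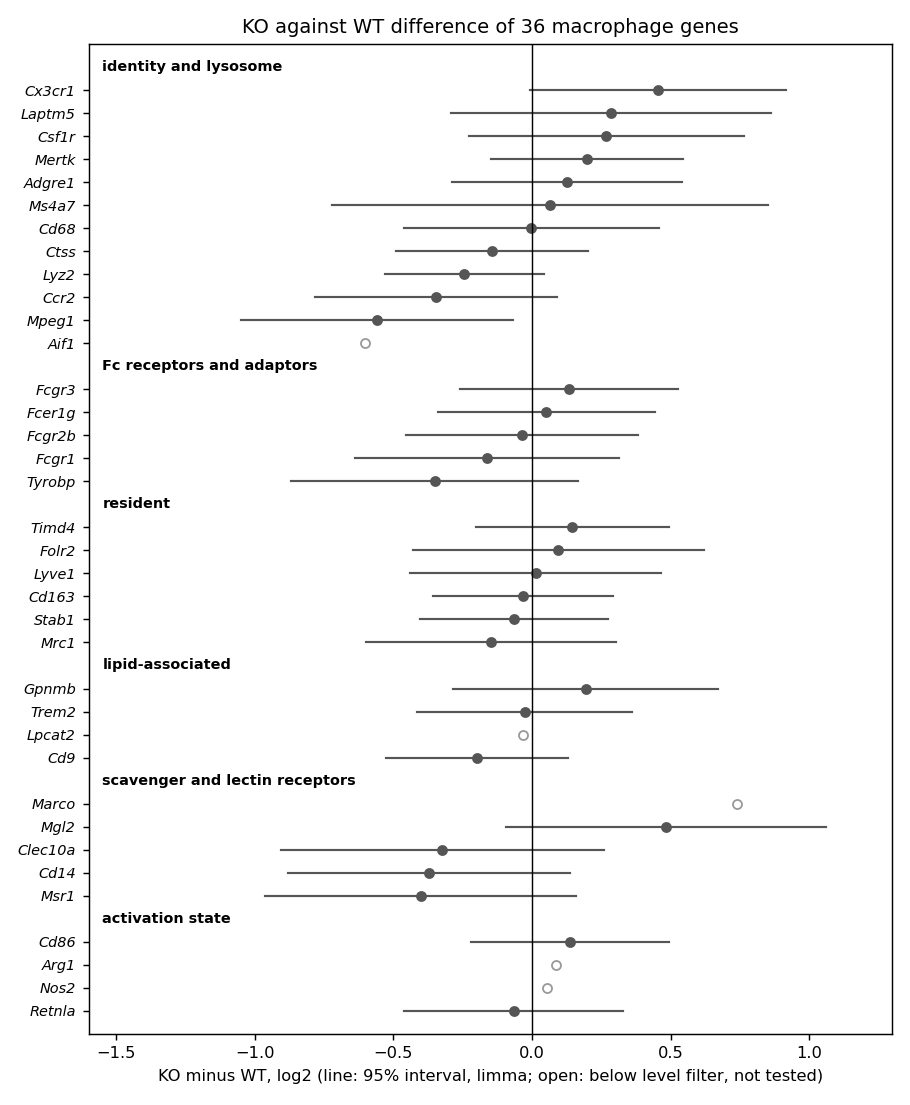
Difference between KO and WT (KO minus WT, log2, x axis) for 36 macrophage genes grouped by role (y axis). Points are differences of group means, lines are 95% intervals from limma, and open points are the 5 genes below the level filter, which were not tested. Among the 31 tested genes the interval of Mpeg1 alone lies off 0, from -1.05 to -0.07.

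Of the genes by which macrophages are identified, Adgre1, which encodes the surface antigen recognised by the classic mouse macrophage antibody, read 6.31, 6.20, 6.24, 5.72 and 5.62 in KO 1 to KO 5, against 5.75, 6.01 and 5.93 in WT 1 to WT 3. KO arrays lay on both sides of the WT range, and the difference was 0.13 (SE 0.186, adjusted p = 0.846). Cd68, a glycoprotein of macrophage lysosomes, read 8.23, 8.18, 7.90, 7.34 and 7.95 in KO, against 8.16, 7.72 and 7.90 in WT. The group means were 7.92 ± 0.353 and 7.92 ± 0.223 (KO and WT, SD, n = 5 and 3), with a 95% interval of the difference from -0.46 to 0.46. Csf1r, the receptor for the growth factor CSF1, read 8.22, 8.43, 8.08, 7.63 and 7.79 in KO, against 7.36, 8.16 and 7.77 in WT. Its difference of 0.27 (SE 0.223, adjusted p = 0.704) lay within the spread of both groups, and was 0.07 without WT 1.

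Mpeg1, which encodes perforin-2, a pore-forming protein of phagocytes, had the lowest tested difference. It read 7.20, 6.77, 6.90, 6.76 and 6.22 in KO, against 7.63, 6.99 and 7.36 in WT. All KO arrays but KO 1 lay below the lowest WT array. The means were 6.77 ± 0.356 in KO and 7.33 ± 0.322 in WT, a difference of -0.56 (SE 0.221). Its unadjusted limma p was 0.0295, its adjusted p 0.417, and an exact permutation test, two-sided, gave 0.0714. This test doubles the smaller tail, and the smallest p it can give for 5 against 3 is 0.0357. Without WT 1 the difference was -0.41 with an unadjusted limma p of 0.133, and without WT 3 the p was 0.0731.

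Aif1, which encodes the actin-binding protein IBA1 of macrophages, lay below the level filter. It read 3.61, 2.90, 3.33, 2.65 and 2.93 in KO, against 3.60, 3.81 and 3.65 in WT. Only KO 1 reached the WT range. With no level filter its difference of -0.60 had an unadjusted limma p of 0.0162 and an adjusted p of 0.499, in a fit where 8.44% of all 22180 genes had an unadjusted p under 0.05.

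The remaining genes of this group went both ways. Cx3cr1, the receptor for fractalkine, read 3.90, 4.08, 4.22, 3.78 and 3.55 in KO, against 2.99, 3.77 and 3.59 in WT (difference 0.45, SE 0.207, adjusted p = 0.480). WT 1 was the lowest of the 8, and without it the difference was 0.22. Ccr2, the receptor that draws monocytes into tissue, read 4.55, 4.81, 5.49, 4.88 and 5.10 in KO, against 5.20, 5.35 and 5.38 in WT (difference -0.35, adjusted p = 0.562). Only KO 3 lay above WT, and the other KO arrays lay below the lowest WT array. Lyz2, which encodes lysozyme and is used to drive Cre in myeloid cells, read 10.21, 10.39, 10.64, 10.43 and 10.29 in KO, against 10.60, 10.64 and 10.68 in WT (difference -0.25, SE 0.129, adjusted p = 0.540). KO 3 was the one KO array inside the WT range. How far the probes of Lyz2 read the transcript of its paralog Lyz1 was not tested. The lysosomal protease gene Ctss was at -0.14, Mertk, a receptor for the clearance of dead cells, at 0.20, and Laptm5, a lysosomal membrane gene of blood-derived cells, at 0.28 (0.12 without WT 2 and 0.48 without KO 5). The intervals of all 3 held 0.

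Ms4a7, a membrane protein gene of tissue macrophages, varied most within the KO group. It read 5.69, 5.88, 5.97, 4.47 and 4.62 in KO 1 to KO 5, against 5.33, 5.08 and 5.38 in WT. The KO values lay on both sides of the whole WT range, with an SD of 0.721 in KO and 0.159 in WT, and the means differed by 0.07 (95% interval -0.72 to 0.85).

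**Figure D2:**
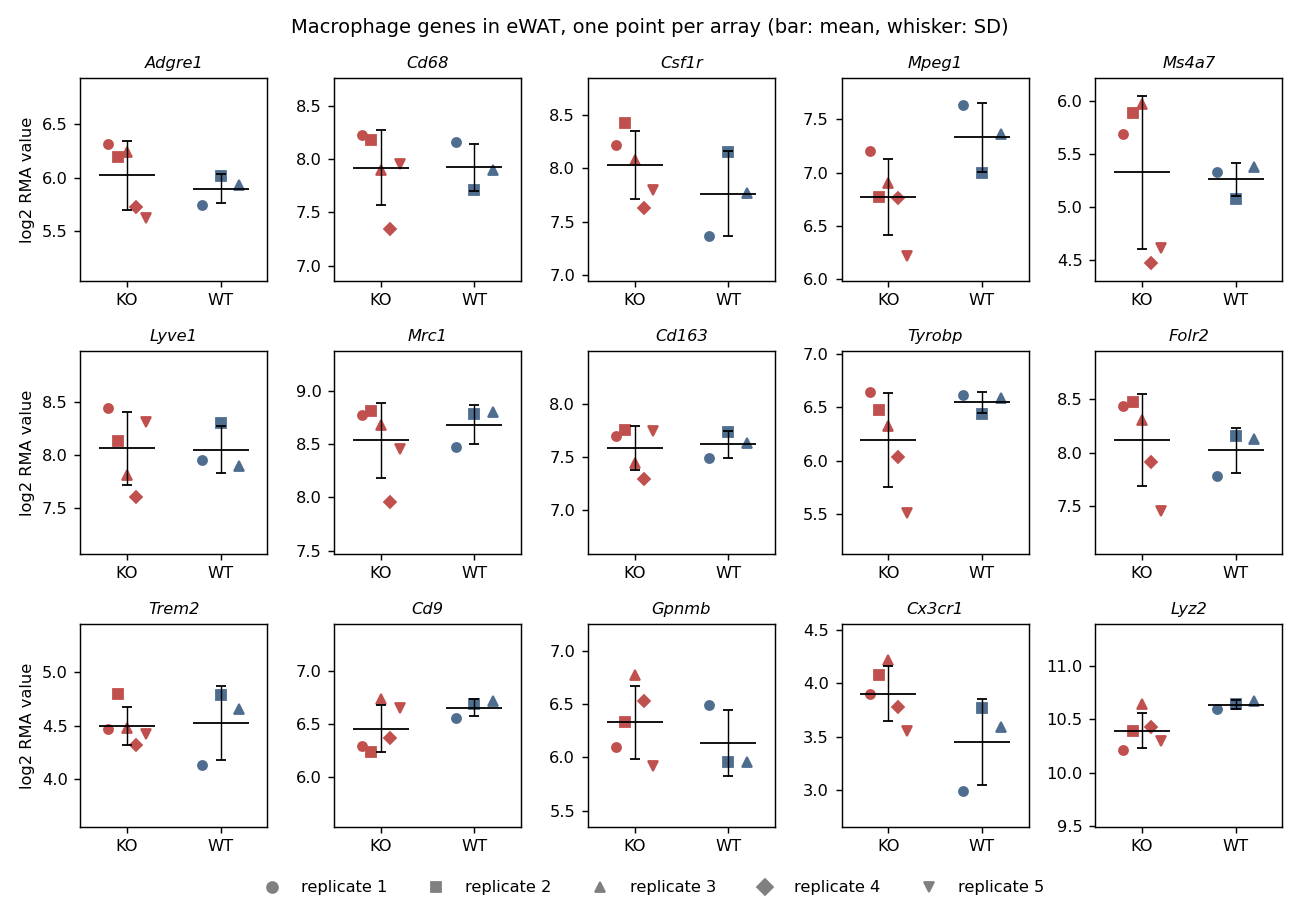
Log2 RMA values (y axis, every panel spanning the same 1.9 log2 units) of 15 macrophage genes in KO and WT (x axis), 1 point per array with the marker giving the replicate number, the horizontal bar the mean and the whisker the SD. KO and WT points overlap in every panel. The KO points spread beyond both ends of the WT points for Adgre1, Cd68, Ms4a7, Lyve1, Mrc1, Cd163, Tyrobp, Folr2, Cd9 and Gpnmb.

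The Fc receptors bind antibody, and their signal passes through adaptors with tyrosine activation motifs. Of the 5 members, 2 were higher and 3 lower in KO, with differences between -0.35 and 0.13. Fcgr1, the high-affinity receptor, was at -0.16, the inhibitory Fcgr2b at -0.04 and the activating Fcgr3 at 0.13. Fcgr2b and Fcgr3 are similar in sequence, and how far their probes read each other's transcript was not tested. Fcer1g, the common gamma chain, was at 0.05. Tyrobp, the adaptor DAP12 through which TREM2 signals, read 6.64, 6.47, 6.32, 6.03 and 5.51 in KO, against 6.62, 6.44 and 6.59 in WT. KO 3, KO 4 and KO 5 lay below the lowest WT array, and the difference was -0.35 (SE 0.232, adjusted p = 0.620). It was -0.18 without KO 5 and -0.07 with the replicate block.

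Markers of resident macrophages lay close to WT. Of the 6, 3 were higher and 3 lower, all between -0.15 and 0.15. Lyve1 read 8.44, 8.14, 7.82, 7.61 and 8.31 in KO, against 7.95, 8.30 and 7.90 in WT (difference 0.01, 95% interval -0.44 to 0.47). Lyve1 is also a gene of lymphatic endothelium, whose list averaged 5.17 to 5.58 over the KO arrays and 5.18 to 5.49 over the WT arrays (5 of 6 genes measured). Mrc1 read 8.77, 8.82, 8.68, 7.96 and 8.46 in KO, against 8.47, 8.78 and 8.80 in WT. KO 4 was the array that stood lowest, and the difference was -0.15 (95% interval -0.60 to 0.30). Cd163 read 7.70, 7.75, 7.45, 7.30 and 7.74 in KO, against 7.49, 7.74 and 7.64 in WT (difference -0.03, 95% interval -0.36 to 0.29). KO 4 was again the lowest array.

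Folr2, a folate receptor of perivascular macrophages, read 8.44, 8.48, 8.31, 7.91 and 7.45 in KO, against 7.78, 8.16 and 8.13 in WT (difference 0.09, SE 0.235). KO 1, KO 2 and KO 3 lay above all WT arrays and KO 5 below them. Timd4, a receptor for phosphatidylserine on long-lived resident cells, was at 0.15, and the scavenger receptor Stab1 at -0.07.

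Of the lipid-associated markers, Trem2, the lipid-sensing receptor, read 4.47, 4.80, 4.48, 4.32 and 4.42 in KO, against 4.13, 4.79 and 4.65 in WT (difference -0.03, 95% interval -0.42 to 0.36). The tetraspanin gene Cd9, which other cells of fat express too, read 6.30, 6.23, 6.73, 6.37 and 6.64 in KO, against 6.56, 6.69 and 6.71 in WT (difference -0.20, adjusted p = 0.673). Its dimmer probe set read 1.80 to 2.08 in KO and 1.60 to 1.75 in WT, the opposite direction (0.28) near the bottom of the scale, so the probe sets disagree. Gpnmb, a glycoprotein of lysosomes, read 6.10, 6.33, 6.78, 6.53 and 5.92 in KO, against 6.50, 5.95 and 5.96 in WT (difference 0.19, 95% interval -0.28 to 0.67). Both groups held high and low arrays, and the difference was 0.08 without KO 3 and 0.37 without WT 1. Lpcat2, an acyltransferase of lipid mediator synthesis, lay below the level filter, with means of 3.37 in KO and 3.40 in WT.

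To set the resident against the lipid-associated markers, each gene was centred on its mean over the 8 arrays and the 3 genes of each kind (Lyve1, Mrc1 and Cd163, and Trem2, Cd9 and Gpnmb) were averaged. Resident minus lipid-associated was 0.37, 0.13, -0.33, -0.44 and 0.19 in KO 1 to KO 5, against -0.08, 0.15 and 0.02 in WT 1 to WT 3. The means were -0.02 ± 0.349 in KO and 0.03 ± 0.112 in WT, so the difference of -0.05 was far within the spread of the KO arrays. Among the KO arrays the low value of KO 4 lay with its resident genes (-0.46) and that of KO 3 with its lipid-associated genes (0.23) more than its resident genes (-0.10). The sign of the difference turned with the replicate block (0.03), and without KO 3 (0.03), KO 4 (0.06), WT 2 (0.01) or both WT 1 and KO 4 (0.01). It was -0.22 without KO 1 and KO 2, -0.14 without KO 1 and -0.13 with the mean of probe sets. The values were computed for description, with no test.

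**Figure D3:**
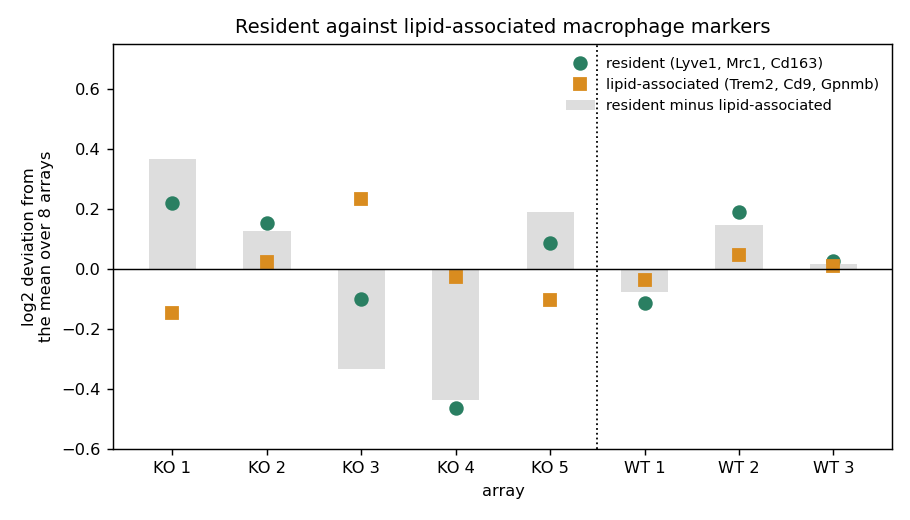
Mean deviation (y axis, log2) from each gene's mean over 8 arrays for the resident markers Lyve1, Mrc1 and Cd163 (circles) and the lipid-associated markers Trem2, Cd9 and Gpnmb (squares) in each array (x axis), with resident minus lipid-associated as bars. The bars of the KO arrays run from -0.44 to 0.37 and enclose those of the WT arrays, from -0.08 to 0.15.

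Of the scavenger and lectin receptors, Cd14, the coreceptor for lipopolysaccharide, was at -0.37 (SE 0.229), Msr1, scavenger receptor A, at -0.40 (SE 0.252) and Clec10a at -0.32 (SE 0.262), with adjusted p-values from 0.594 to 0.694. Without WT 1 the difference of Cd14 was -0.19, and that of Clec10a was -0.59 without WT 1 and -0.10 without WT 3. Msr1 read 4.58, 4.72, 4.62, 4.10 and 4.59 in KO, against 5.63, 4.65 and 4.49 in WT. The WT mean of Msr1 rested on WT 1, and without WT 1 the difference was -0.05. Mgl2, the close paralog of Clec10a, went the other way. It read 5.82, 5.00, 5.15, 5.05 and 5.07 in KO, against 4.13, 5.18 and 4.89 in WT, a difference of 0.48 (SE 0.259, adjusted p = 0.545). KO 1 was its highest and WT 1 its lowest array, and without WT 1 the difference was 0.18. How far the probes of these paralogs read each other's transcript was not tested. Marco, a scavenger receptor of lymphoid and alveolar macrophages, lay below the level filter. It read 2.55, 3.26, 4.40, 3.64 and 3.63 in KO, against 2.78, 2.50 and 2.99 in WT. All KO arrays but KO 1 lay above WT, and with no level filter the adjusted p was 0.600.

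Neither tested gene of the activation state differed detectably. Retnla, a secreted product of macrophages exposed to interleukin-4, read 9.45 to 10.09 in KO and 9.57 to 10.03 in WT (difference -0.07, 95% interval -0.46 to 0.33). Cd86, a costimulatory ligand for T cells, was at 0.14 (adjusted p = 0.799). Arg1, the arginase of alternatively activated mouse macrophages, and Nos2, the nitric oxide synthase of classically activated ones, lay below the level filter in both groups. Arg1 averaged 3.30 ± 0.227 in KO and 3.22 ± 0.217 in WT, and Nos2 averaged 3.02 ± 0.347 in KO and 2.97 ± 0.230 in WT.

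The KO arrays spread more widely than the WT arrays. The SD was larger in KO than in WT for 23 of the 31 tested members, with medians of 0.322 in KO and 0.205 in WT. Over all tested genes the KO SD was the larger for 68.1%, with medians of 0.238 and 0.172 (KO and WT). KO 1 held the highest value of 10 members (32.3%, against 17.3% of all tested genes), KO 3 of 8 (25.8%, against 10.4%) and KO 2 of 5 (16.1%, against 11.8%). KO 4 held the lowest value of 9 members (29.0%, against 10.7% of all tested genes) and KO 5 of 10 (32.3%, against 28.9%). The median member lay 0.22 above its mean over the arrays in KO 1, 0.15 above in KO 3 and 0.08 above in KO 2. In KO 4 its deviation was -0.17 and in KO 5 -0.19, with -0.11 in WT 1, 0.11 in WT 2 and 0.05 in WT 3. Over all tested genes the median deviations were 0.046, 0.004, 0.007, -0.022 and -0.088 in KO 1 to KO 5. They were 0.023, 0.018 and 0.013 in WT 1 to WT 3.

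**Figure D4:**
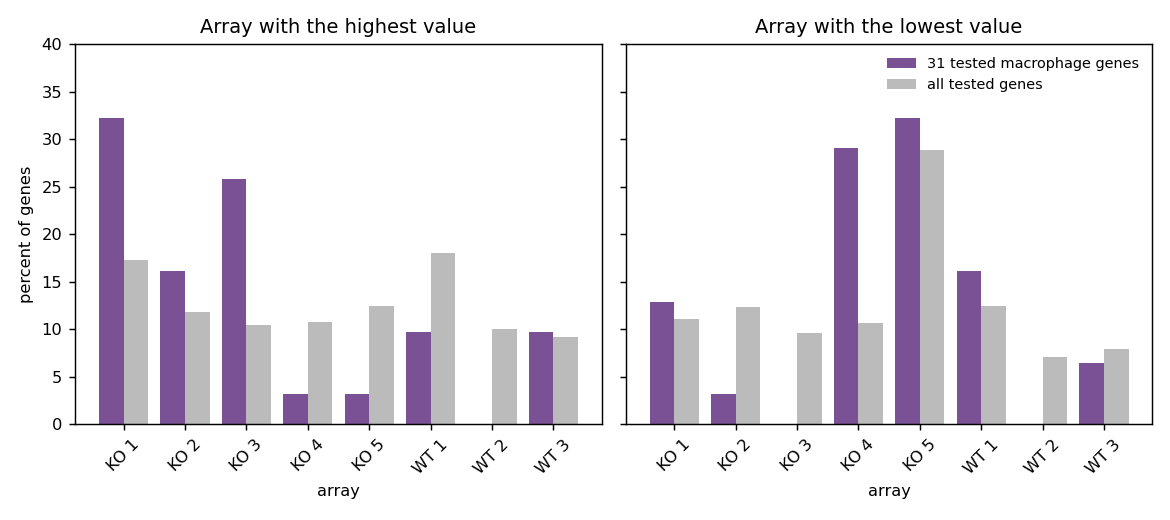
Percent of genes (y axis) whose highest value (left) or lowest value (right) fell on each array (x axis), for the 31 tested macrophage genes and for all 11090 tested genes. Of the macrophage genes 32.3% were highest in KO 1, and 29.0% were lowest in KO 4 and 32.3% in KO 5.

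Genes of other cell types also varied between these arrays. The mature adipocyte list (7 genes) averaged 10.94, 10.82, 10.54, 10.47 and 10.37 in KO 1 to KO 5, against 10.60 to 10.78 in WT. The fibroblast and preadipocyte list (5 genes) averaged 9.24, 9.17, 9.07, 8.96 and 8.86 in KO, against 8.92 to 9.14 in WT. Both lists were highest in KO 1 and lowest in KO 5. Endothelial lists had the opposite order at these ends: blood endothelium (6 genes) averaged 7.88, 7.97, 7.90, 7.89 and 8.27 in KO 1 to KO 5, against 8.09 to 8.49 in WT. The lymphatic list given with Lyve1 was likewise lowest in KO 1 and highest in KO 5. The B cell list (3 genes) averaged 4.50 in KO 3 and 2.67 to 3.05 in the other KO arrays, against 2.72 to 3.15 in WT. KO 4 was also the array high in Lcn5, Spint4 and Adam7, and KO 5 was the array with the lowest median over tested genes. The part of these in the macrophage values was not tested.

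**Figure D5:**
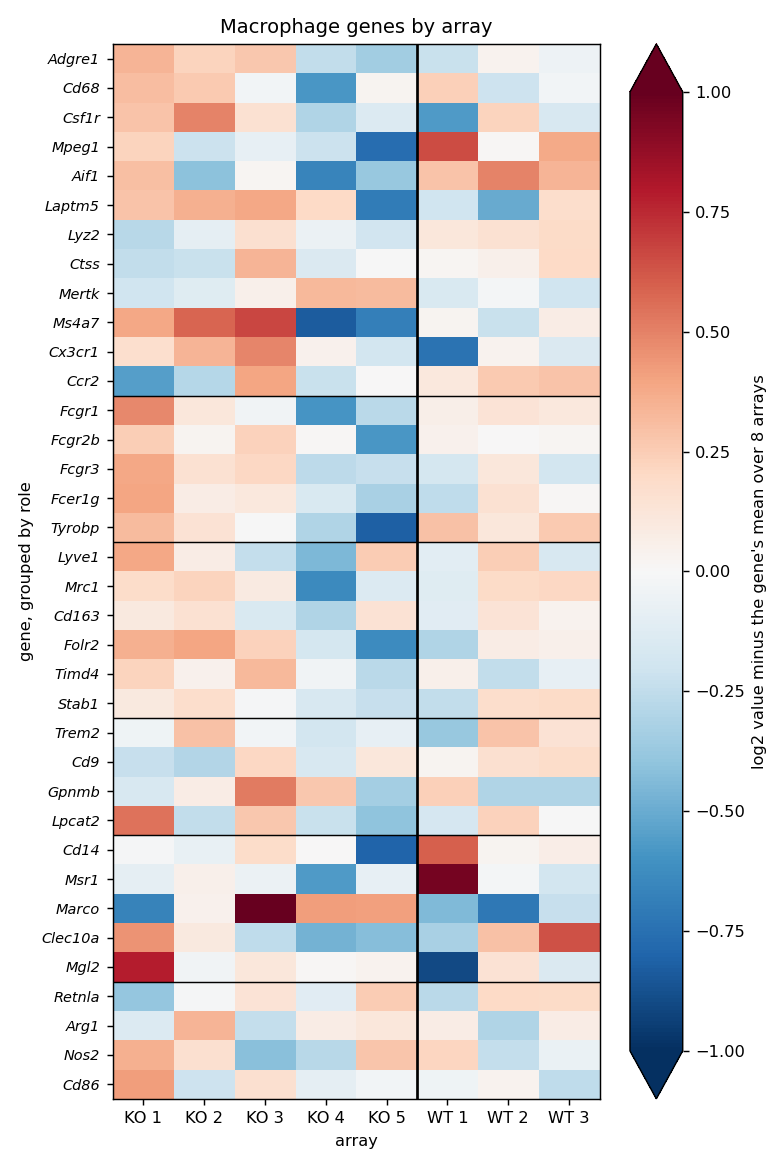
Deviation of each log2 value from the gene's mean over 8 arrays (colour, cut at -1 and 1) for the 36 macrophage genes (rows, grouped by role) in each array (columns, KO left of the line and WT right of it). The lowest value of all 5 Fc receptor and adaptor genes and of 5 of the 6 resident genes lies in KO 4 or KO 5. Of all tested genes 10.7% were lowest in KO 4 and 28.9% in KO 5. Marco is highest in KO 3.

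KO and WT share the replicate numbers 1 to 3. Blocking on that number leaves the contrast to KO 1 to KO 3 and the WT arrays. KO 4 and KO 5, which held the lowest value of 9 and 10 members, drop out. In that fit 7 of 31 members (22.6%) had an unadjusted p under 0.05, against 18.0% of all tested genes. Higher in KO were Cx3cr1 (0.61), Ms4a7 (0.59), Laptm5 (0.52), Csf1r (0.48), Folr2 (0.39) and Adgre1 (0.36), and Mpeg1 was lower (-0.37). No member passed after adjustment in that fit either (smallest adjusted p = 0.154, Ms4a7). KO 1 and KO 2 held the highest value of 10 and 5 members, so the direction of a fit without them follows in part from that choice. Without them 22 of 31 members were lower in KO. The median was -0.13, when the median over all tested genes was -0.05. The share of all tested genes lower in KO was not counted for that fit. In that fit 5 members (16.1%) had an unadjusted p under 0.05, against 9.49% of all tested genes: Mpeg1 (-0.70), Tyrobp (-0.59), Clec10a (-0.59) and Fcgr1 (-0.40) were lower and Mertk (0.36) was higher. Leaving out single arrays gave 0 such members without WT 1 (6.72% of all tested genes). It gave 3 members (9.68%) without WT 2, KO 3 or KO 5, against 8.64%, 10.4% and 14.4% of all tested genes in those fits.

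Genes around the set were read from 6 further lists of 66 genes, 47 of them tested. None passed after adjustment in limma, 5 (10.6%) had an unadjusted p under 0.05, against 10.5% of all tested genes, and 3 (6.38%) separated the groups, against 8.53%. The lists hold other macrophage genes such as complement C1q, other resident and lipid-associated markers, growth factors and chemoattractants, transcription factors, and cytokines.

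Of 9 growth factors and chemoattractants that passed the level filter, 4 lay above and 5 below WT. Cxcl12, a chemokine of stromal and endothelial cells that retains leukocytes through CXCR4, read 7.68, 7.80, 8.18, 7.72 and 7.66 in KO, against 8.25, 8.57 and 8.37 in WT. All KO arrays lay below all WT arrays, with a difference of -0.59 (SE 0.152, unadjusted p = 0.00310, adjusted p = 0.270). Of the 6 blood endothelial genes 5 were also lower in KO, with a median of -0.45, among them the receptor gene Kdr at -0.69 with no overlap (unadjusted p = 0.000365, adjusted p = 0.150) and Pecam1 at -0.64 (unadjusted p = 0.0138), while the junction gene Cldn5 was at 0.61. Their part in the Cxcl12 value was not tested. Il34, the second ligand of CSF1R, read 5.98, 5.84, 6.37, 5.85 and 5.96 in KO, against 4.24, 5.36 and 5.96 in WT. Its difference of 0.82 (SE 0.320, adjusted p = 0.416) was 0.34 without WT 1.

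Of 12 other macrophage genes tested, 8 were higher and 4 lower. Cd84, a self-binding receptor of leukocytes, was at -0.35 (unadjusted p = 0.0460), and C3ar1, the receptor for complement C3a, at 0.23 with all KO arrays above WT (unadjusted p = 0.0869). Of 9 other lipid-associated genes tested, 4 were higher and 5 lower. Mmp12, the macrophage elastase, read 3.72 to 4.22 in KO and 4.25 to 4.33 in WT, a difference of -0.33 (unadjusted p = 0.0344, adjusted p = 0.433). Of 6 other resident genes 4 were higher and 2 lower, with the factor XIII gene F13a1 at -0.32.

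Of 8 transcription factors tested, 3 were higher and 5 lower. Maf, a factor of resident macrophages that fibroblasts also express, was at -0.43 (unadjusted p = 0.0229, adjusted p = 0.394). Spi1, which encodes PU.1, was at 0.30 (adjusted p = 0.548), and its groups overlapped. Of 11 cytokines only Tgfb1, Il18 and Il33 passed the level filter, and none of these reached an unadjusted p of 0.05.

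Markers of cells that share genes with macrophages were mostly near or below the level filter. Of the dendritic cell list 2 of 5 measured genes passed the level filter, Zbtb46 at -0.09 and Cd209a at 0.06. Of the monocyte list 2 of 3 passed, Ly6c2 at 0.26 and Plac8 at 0.05, and of 6 neutrophil genes none passed.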

How the data were processed

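Transcripts were measured on Affymetrix Mouse Gene 2.0 ST arrays, 1 per mouse, from 200 ng of total RNA. The authors deposited 1 log2 value per probe set and array (41345 probe sets). Per the submitters' processing notes, RMA and oligo were used, whereas Expression Console is named in the design text of the series, so the tool behind the deposited values is not settled, and the sources used here give no versions or filters. RMA compresses differences of dim probe sets. There are no counts behind array values: precision is limited by the number of arrays.

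Probe sets with 1 annotated symbol (23521) were named, with current symbols by Entrez identifier (23328 matched). The annotation can be old. For each gene the brightest probe set by its 8-array mean was used. Genes whose mean reached the median over genes (3.61) were tested, KO against WT, in limma 3.58.1 (R 4.3.3, lmFit and eBayes, two-sided, Benjamini-Hochberg over 11090 genes, threshold 0.05). All p-values are limma's except exact two-sided permutation tests, with the smaller tail doubled, over the 56 divisions of the arrays into 5 and 3. Exact tests were computed for each of the 36 members without adjustment, and 1 is printed. The fitting script was tested on simulated data. Promoter motifs were counted in Python 3.11.15, and figures drawn with matplotlib 3.10.9.

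The members and gene lists were chosen with earlier results of these data known. All members may be named, with statistics for those at an unadjusted p under 0.05 and for defining markers, and up to 3 genes of each other list by smallest unadjusted p. The values of Msr1, Mgl2, Marco, Aif1, Ms4a7, Cx3cr1, Ccr2, Lyz2, Folr2 and Tyrobp by array, and the dendritic, monocyte and B cell genes, were chosen after they had been seen. Of the erythroid list 0 of 7 genes had a probe set of their own.

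Same-numbered KO and WT arrays were checked for pairing by the correlation of their deviations from the group means over the tested genes. The correlations were 0.133 (replicate 1), 0.103 (replicate 2) and 0.192 (replicate 3). Arrays with different numbers ran from -0.244 (WT 3 with KO 1) to 0.105 (WT 2 with KO 1). These correlations do not settle whether the numbers mark pairs. The main fit left the number out, and the replicate block was run as an alternative. What a number stands for is not stated. Alternatives changed the level filter, scaling, probe sets, prior, array weights, replicate block and arrays left out. Centring over the tested genes was added after seeing the data.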

Additional observations from a re-analysis of the deposited data

Results flagged for a closer look

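In each of 37 sets of 5 KO values (36 genes and the resident minus lipid-associated value), the gap of the highest or lowest array to its neighbour was set against the range of the group, and 5 sets exceeded the critical value of 0.710 for 5 samples. Chance alone marks about 1 in 20 independent groups, but these sets come from the same 5 arrays. The share over all tested genes was not computed, so the count is not read as a trait of macrophage genes. KO 5 held the lowest value of 28.9% of all tested genes. Laptm5 was low in KO 5 (4.26, against 5.16 to 5.35 in the other KO arrays), with a gap of 0.829 of the range. Fcgr2b was low in KO 5 (7.18, against 7.78 to 8.01) with a gap of 0.719, and Cd14 was low in KO 5 (5.45, against 6.17 to 6.42) with a gap of 0.736. Msr1 was low in KO 4 (4.10, against 4.58 to 4.72) with a gap of 0.773. Mgl2 was high in KO 1 (5.82, against 5.00 to 5.15) with a gap of 0.821.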

How the results depend on the processing

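No member passed the adjusted threshold under any of the 18 alternatives (smallest adjusted p 0.154, with the replicate block), and 15 of the 31 tested members kept their direction in all of them. The number of members at an unadjusted p under 0.05 was 1 as reported (Mpeg1). The 1 member was Cx3cr1 with arrays centred on their medians and Msr1 without WT 3. The number was 2 with no level filter, with the filter at the 25th percentile, with centring over the tested genes and with array weights. It was 7 with the replicate block, 5 without KO 1 and KO 2, 0 without WT 1 and KO 4, and 0 to 3 without single arrays. The share of all tested genes at that p was 8.44% with no level filter, 9.20% with the filter at the 25th percentile, 10.5% with centring over the tested genes, 16.9% with array weights, 18.0% with the replicate block, 9.49% without KO 1 and KO 2, 6.60% without WT 1 and KO 4 and 6.72% to 14.4% without single arrays. It exceeded the members' share in these fits except with the replicate block, without KO 1 and KO 2 and without WT 2. The number of members without overlap, 0 as reported, was 1 with arrays centred on their medians (Lyz2) and without WT 1 and KO 4 (Stab1), 4 without KO 1 and KO 2, and 0 to 4 without single arrays. In these fits 7.11% to 18.7% of all tested genes did not overlap. With the replicate block 10 members were lower in KO, against 17. The median member difference was 0.01 with arrays centred on their medians.

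No member that changed sign was called. With the replicate block the differences were Cd68 0.180, Fcgr1 0.085, Fcgr2b 0.144, Mrc1 0.072, Cd163 0.012, Stab1 0.0463 and Trem2 0.0567. Without KO 1 and KO 2 they were Adgre1 -0.031, Ms4a7 -0.240, Fcgr3 -0.012, Fcer1g -0.0913, Lyve1 -0.138, Folr2 -0.131 and Retnla 0.0503. Without WT 1 and KO 4 they were Cd68 0.259, Fcer1g -0.017 and Msr1 0.0555. With array weights they were Cd68 0.100, Fcgr2b 0.0589 and Lyve1 -0.0201, with arrays centred on their medians Cd68 0.0307 and Trem2 0.0065, with centring over the tested genes Cd68 0.0225, and with the mean of probe sets Cd9 0.0406. Without single arrays the differences ranged from -0.108 to 0.141 for Cd68, -0.0945 to 0.279 for Ms4a7, -0.102 to 0.106 for Fcgr2b, -0.0604 to 0.141 for Fcer1g, -0.0825 to 0.139 for Lyve1, -0.0999 to 0.0392 for Cd163, -0.0264 to 0.261 for Folr2, -0.208 to 0.0078 for Stab1, -0.224 to 0.105 for Trem2 and -0.221 to 0.0252 for Retnla. The cause of these changes was not tested.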

Other observations

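The array labelled KO 3 had the highest values of the measured B cell genes, of Marco and of Vsig4. All of these lay below the level filter, and they were looked at after their values had been seen. The T and NK cell list was not raised in KO 3, where it averaged 3.13. It averaged 3.08 to 3.30 in the other KO arrays and 3.01 to 3.44 in WT. The B cell receptor component Cd79a read 5.31 in KO 3, 3.12 to 3.46 in the other KO arrays and 3.06 to 3.80 in WT. Cd79b read 4.10 in KO 3, 2.62 to 3.42 in the other KO arrays and 2.87 to 3.23 in WT. Ms4a1, which encodes the B cell antigen CD20, read 4.07 in KO 3, 2.09 to 2.74 in the other KO arrays and 2.00 to 2.42 in WT. Marco (4.40) and the complement receptor gene Vsig4 were highest in the same array. Vsig4 read 4.86 in KO 3, 2.60 to 3.45 in the other KO arrays and 3.48 to 3.63 in WT.

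WT 1 was the highest array for Mpeg1 (7.63), Cd14 (6.84) and Msr1 (5.63), or 9.68% of tested members, against 18.05% of all tested genes. It was the lowest for Csf1r (7.36), Cx3cr1 (2.99), Stab1 (6.88), Trem2 (4.13) and Mgl2 (4.13), or 16.1%, against 12.4% of all tested genes. Chil3, a chitinase-like gene of myeloid cells, read 4.78 in WT 1, against 1.95 to 3.01 in KO and 2.27 to 2.75 in the other WT arrays.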
